A study of Homo sapiens with 18 samples.

Results

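The G2/M and mitosis genes are 48 genes whose products carry a cell from the end of DNA replication through chromosome segregation to the separation of the daughter cells. A gene was taken as measured where a transcript cluster, the array's unit of measurement for a gene, was annotated with exactly 1 gene symbol equal to its name, and the cluster with the highest mean was used where there were several. By that rule 47 of the 48 were measured, out of 18377 genes with such a cluster, and CENPA, the centromeric histone, was not, since its only cluster carries several symbols. All 47 lay above the filter on low signal.

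The cells were ECV304, an established human line that the labels call endothelial, with epithelial traits also named, and that is known to share its genetic identity with a bladder carcinoma line. Cells were grown to confluence in 10% serum, kept for 24 h at 1% serum, a step the labels give as a means to synchronise the cell cycle, and then given the inflammatory cytokine interleukin-1β (IL-1β) at 100 IU/ml. Treated cells received aminaphtone, a drug used for capillary disorders, at 6 µg/ml together with IL-1β, and control cells received IL-1β with the same volume of medium. RNA was taken after 1, 3 and 6 h, so the groups were aminaphtone and control at 1 h, aminaphtone and control at 3 h, and aminaphtone and control at 6 h, each with 3 arrays described as independent replicates. What made them independent is not given, so p-values here rest on the spread between samples that may differ only technically. All groups share the IL-1β and the low serum, and no group without IL-1β was analysed here, so time after IL-1β cannot be told apart from time in low serum. Levels are log2 signals, on which 1 unit is a doubling, and the level of one gene is not set against that of another.

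As background, entry into mitosis is driven by CDK1 bound to A- and B-type cyclins, and exit by the anaphase-promoting complex, which marks cyclins and securin for destruction. The mRNAs of these genes are low in resting cells and in G1 and accumulate together in G2. In resting cells the MuvB protein complex holds them down from a promoter element called the cell cycle genes homology region (CHR). In dividing cells MuvB joins B-MYB and FOXM1 to activate them, often beside boxes bound by the factor NF-Y. RNA from a dish averages over all its cells, so a larger share of cells in G2 or mitosis cannot be told apart from more mRNA per such cell.

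The promoters show the shared letters. RefSeq windows (GRCh38.p14, 250 bases before to 50 bases after the transcription start) were found for 41 of the 48 genes, and for AURKA, BIRC5, BUB3, FOXM1, TPX2, TTK and UBE2C none was used. The core letters of the CHR, TTTGAA on either strand, were present in 27 of the 41 windows (65.9%), against 15.4% of 27305 gene windows of the same length. The variant TTCGAA was present in 3 windows (7.32%, against 1.45%). The NF-Y box letters, CCAAT on either strand, were present in 29 windows (70.7%, against 35.7%), and at least 2 such boxes in 18 (43.9%, against 11.3%). A CHR of either spelling together with an NF-Y box occurred in 22 windows (53.7%, against 6.58%). A match is a description of letters and not evidence of binding. Below are the 100 bases before the start of 6 genes that recur in the results, 5′ to 3′ on the gene's strand, with the CHR and NF-Y letters in capitals. TTCAAA and ATTGG are the same letters read from the opposite strand, and neighbouring matches can share letters.
CCNB2: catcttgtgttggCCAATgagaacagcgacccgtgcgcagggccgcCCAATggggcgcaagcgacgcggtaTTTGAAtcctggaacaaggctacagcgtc
HMMR: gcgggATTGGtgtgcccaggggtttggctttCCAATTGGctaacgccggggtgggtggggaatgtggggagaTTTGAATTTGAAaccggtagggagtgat
MKI67: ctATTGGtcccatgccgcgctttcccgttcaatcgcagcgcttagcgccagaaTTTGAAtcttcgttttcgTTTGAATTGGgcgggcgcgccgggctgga
PLK1: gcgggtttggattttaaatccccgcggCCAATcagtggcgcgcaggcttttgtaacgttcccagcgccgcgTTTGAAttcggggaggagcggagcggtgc
BUB1: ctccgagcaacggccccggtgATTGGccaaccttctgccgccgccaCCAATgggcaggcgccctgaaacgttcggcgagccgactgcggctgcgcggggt
NEK2: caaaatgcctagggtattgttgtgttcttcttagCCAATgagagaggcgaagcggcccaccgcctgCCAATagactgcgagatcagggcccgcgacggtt
These stretches are chr15:59105046-59105145 (plus strand) for CCNB2, chr5:163460532-163460631 (plus) for HMMR, chr10:128126424-128126523 (minus) for MKI67, chr16:23678789-23678888 (plus) for PLK1, chr2:110678064-110678163 (minus) for BUB1 and chr1:211675622-211675721 (minus) for NEK2. CCNB2 and PLK1 have NF-Y letters upstream of 1 CHR close to the start. HMMR has 2 abutting CHR spellings, and the last CHR of MKI67 overlaps an NF-Y box. NEK2 has NF-Y letters alone in its window, and the CHR variant of BUB1 begins 2 bases into the transcript. None of these letters occurs in the windows of CDC25B, CDC25C, CENPE, CKAP2, KIF2C and TACC3. Only the first listed window of each gene was searched, so letters near another start of the gene would be missed.

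**Figure D1:**
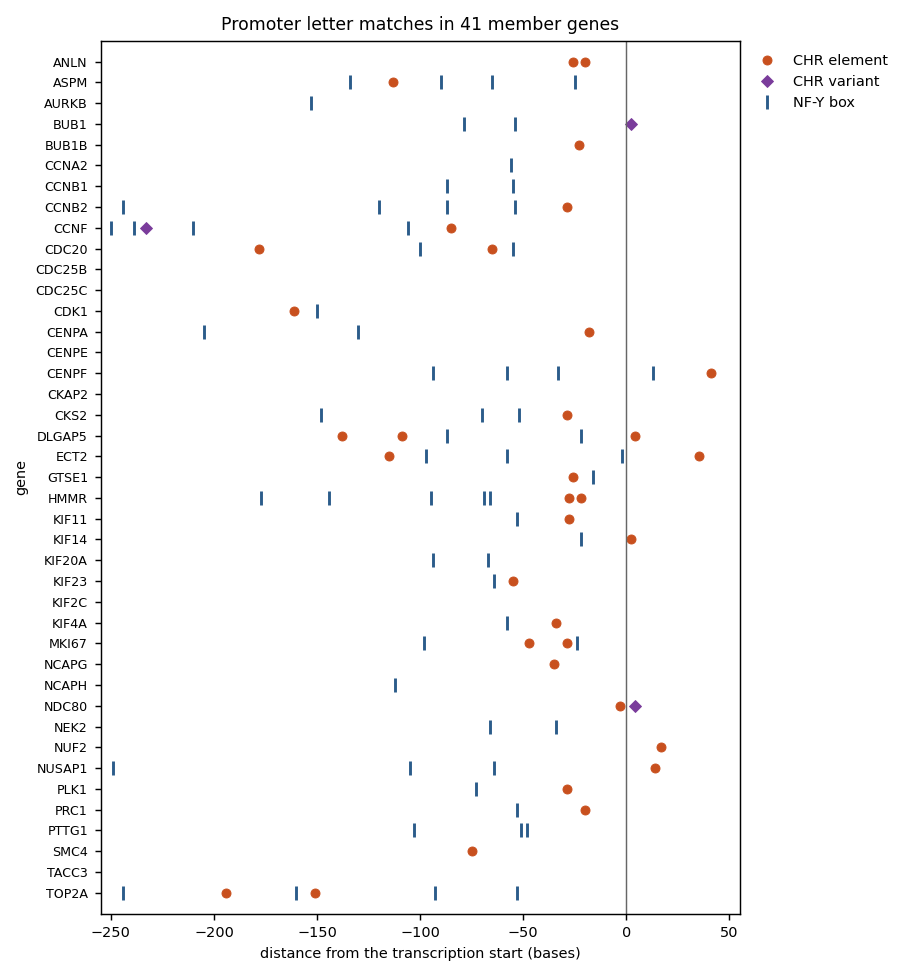
Position of each CHR element (circles), CHR variant (diamonds) and NF-Y box (bars) in the windows of 41 genes, in bases from the transcription start (vertical line at 0). Letter matches cluster in the 100 bases before the start, and the lines of 6 genes, among them CDC25B and CDC25C, are empty.

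Among the libraries, the 3 control arrays at 1 h stood apart from each other. They correlated across all transcript clusters at 0.964 to 0.986, against at least 0.986 within every other group. For the 47 genes, the range over the 3 arrays had a median of 0.873 log2 units in the 1 h controls and 0.343 to 0.518 in the other groups. Control replicate 2 at 1 h was the lowest of all 18 arrays for 16 members and the highest for 6, namely FOXM1, TACC3, BIRC5, AURKB, CDC20 and CDC25B. The first component of the residuals held 59.9% of the residual variance, with 46.6 for control replicate 1 at 1 h, -42.5 for replicate 2 and -16.2 to 23.3 for the other arrays. Counts and medians of the members that rest on the 1 h controls are therefore also given without each of them. Of 14 endothelial markers 7 lay under the signal filter, among them PECAM1 and VWF, and 7 above it, with means from 6.40 (TIE1) to 8.82 (ESAM). Of 12 measured epithelial and urothelial markers 1 lay under it, the keratin KRT20. The other 11 had means from 6.51 (UPK3A) to 12.38 (KRT8). KRT17 and TP63, also listed, were not measured.

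**Figure D2:**
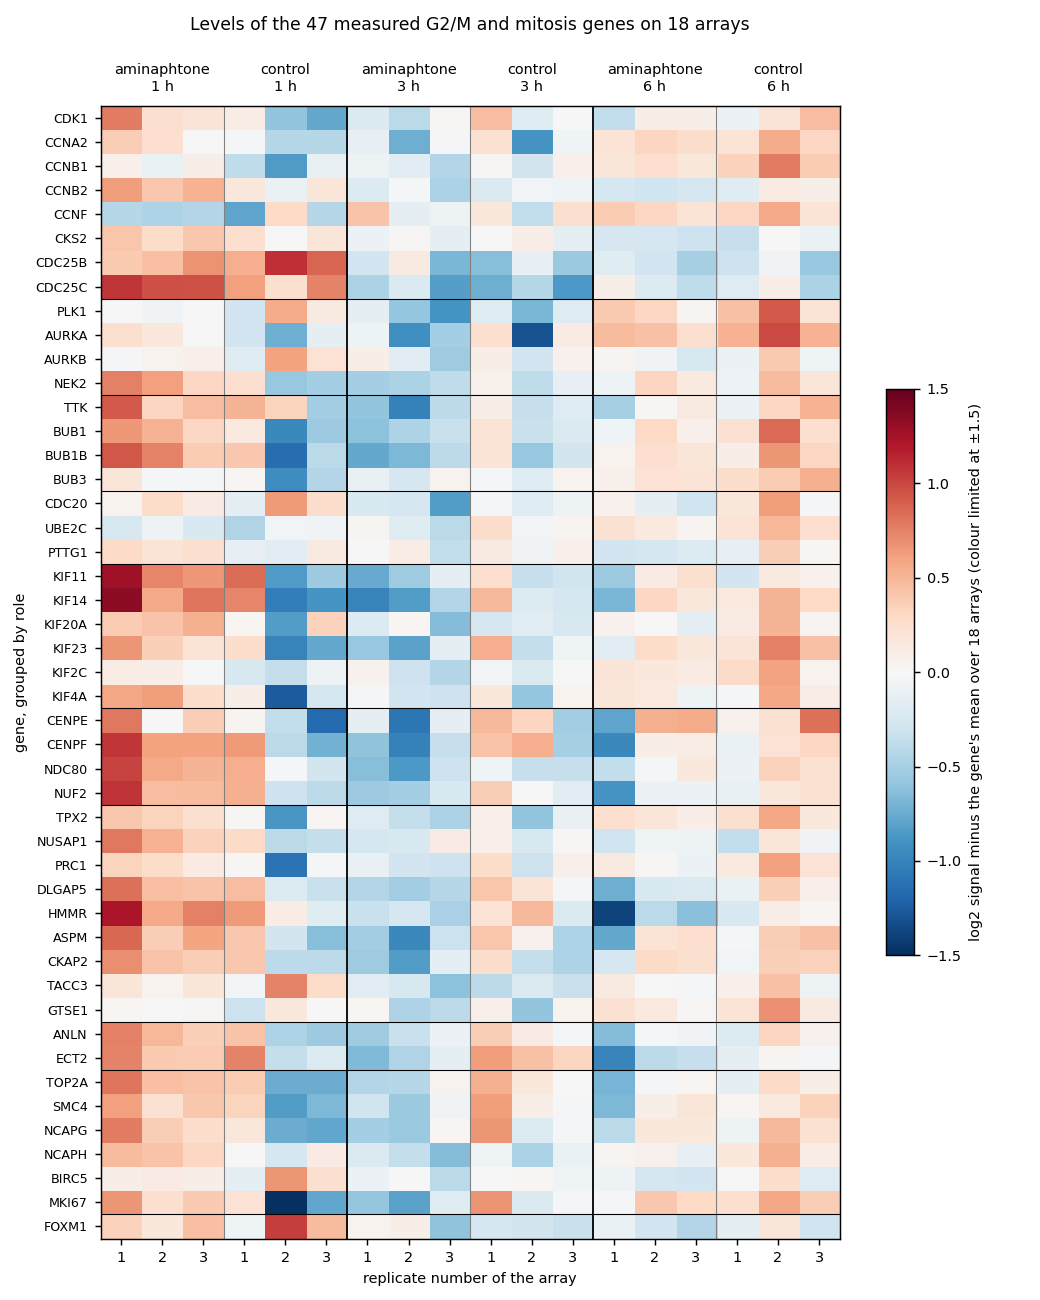
Level of the 47 measured genes (lines, grouped by role) on the 18 arrays (columns, aminaphtone left of control at each time), as log2 signal minus the gene's mean over all arrays. Most genes are high on the 3 aminaphtone arrays at 1 h and low on those at 3 h, and the 3 control arrays at 1 h differ from each other.

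With aminaphtone at 1 h, most mitosis genes lay above the 1 h controls, and no member passed the test. The median log2 difference of the members was 0.60, against -0.10 over the 15796 transcript clusters tested, and 38 of 47 members were on the positive side. In limma, with adjustment over all clusters tested and a threshold of 0.05, 0 of 47 members passed, while 0.0886% of all clusters did. At an unadjusted p under 0.05 there were 31 members, and 30.8% of all clusters. In 20 of 47 members every aminaphtone array lay above every control array, against 5.77% of all clusters. In none did every aminaphtone array lie below.

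The cyclin and CDK1 group had 6 of 8 members above control at 1 h. CDK1, the kinase that drives entry into mitosis, measured 9.94, 9.42 and 9.37 on the aminaphtone arrays, against 9.28, 8.58 and 8.41 on the control arrays. The groups did not overlap, with a log2 difference of 0.82 (SE 0.23, limma adjusted p = 0.139). CCNB1, the main mitotic cyclin, measured 10.72, 10.55 and 10.74 with aminaphtone, against 10.27, 9.80 and 10.54 in controls, a difference of 0.47 (SE 0.17, limma adjusted p = 0.139) with no overlap. The cyclins CCNB2 (0.44) and CCNA2 (0.50), the CDK-binding subunit CKS2 (0.22) and the CDK1-activating phosphatase CDC25C (0.47) were likewise above control on every array. CCNF, an F-box protein that helps to degrade cell cycle proteins, had a log2 difference of -0.14, and CDC25B, a second phosphatase of the CDC25 family, one of -0.33, both with overlapping arrays.

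The mitotic kinases were divided. NEK2, which acts in centrosome separation, had the smallest p of all members at 1 h. It measured 9.22, 9.08 and 8.78 with aminaphtone, against 8.72, 7.90 and 7.96 in controls, a difference of 0.83 (SE 0.20, limma adjusted p = 0.122). Its control replicate 1 sat close to the lowest aminaphtone array and the other two far below. AURKA, the spindle pole kinase, measured 10.22, 10.13 and 9.98 with aminaphtone, against 9.69, 9.24 and 9.82 in controls, a difference of 0.53 (SE 0.31, limma adjusted p = 0.219). PLK1, a kinase needed from mitotic entry to cytokinesis, measured 11.07, 11.03 and 11.08 with aminaphtone, against 10.79, 11.64 and 11.21 in controls, a difference of -0.15 (SE 0.23, limma adjusted p = 0.594). The aminaphtone arrays of PLK1 all fell inside the range of its controls. AURKB, the kinase of the chromosomal passenger complex, had a log2 difference of -0.18.

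The spindle checkpoint genes, whose products delay anaphase until chromosomes are attached, were all above control in their means. BUB1, a checkpoint kinase, measured 10.38, 10.25 and 10.04 with aminaphtone, against 9.87, 8.76 and 9.19 in controls, a difference of 0.95 (SE 0.23, limma adjusted p = 0.124) with no overlap. BUB1B, its partner BubR1, measured 9.79, 9.61 and 9.23 with aminaphtone, against 9.27, 7.72 and 8.45 in controls, a difference of 1.06 (SE 0.29, limma adjusted p = 0.138). Control replicate 1 of BUB1B lay just above the lowest aminaphtone array, while replicate 2 was far below every other array. BUB3 (0.50) and the kinase TTK (0.46) overlapped between the groups. Of the anaphase genes, CDC20, an activator of the anaphase-promoting complex, measured 11.55, 11.76 and 11.62 with aminaphtone, against 11.34, 12.13 and 11.75 in controls (difference -0.10, SE 0.20, limma adjusted p = 0.704). UBE2C, the complex's ubiquitin-conjugating enzyme, had a difference of 0.00 on the log2 scale to 2 decimals, and securin (PTTG1), its substrate, one of 0.29 with no overlap.

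Kinesin motors and kinetochore genes had some of the widest spread among controls. KIF14, a kinesin of cytokinesis, had the largest difference of all members, with 9.34, 8.56 and 8.80 on the aminaphtone arrays, against 8.74, 6.96 and 7.12 on the control arrays. Its log2 difference of 1.30 came from control replicates 2 and 3, since replicate 1 lay inside the aminaphtone range. KIF4A, which acts on chromosome arms and the central spindle, measured 9.60, 9.65 and 9.29 with aminaphtone, against 9.11, 7.77 and 8.75 in controls, a difference of 0.97 (SE 0.27, limma adjusted p = 0.138). The other kinesins were the spindle motor KIF11 (1.07), the cytokinesis motors KIF23 (0.91) and KIF20A (0.61) and the microtubule depolymerase KIF2C (0.29). At the kinetochore the differences were 0.89 for the motor CENPE, 0.92 for CENPF, and 0.62 and 0.73 for NDC80 and NUF2, partners in the microtubule-binding complex.

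Of 9 spindle-associated genes, 8 had positive differences at 1 h. NUSAP1, which bundles spindle microtubules, measured 11.32, 11.05 and 10.88 with aminaphtone, against 10.82, 10.12 and 10.18 in controls, a difference of 0.71 (SE 0.19, limma adjusted p = 0.138). The others ran from 0.07 for GTSE1 to 0.78 for ASPM, a spindle pole protein, with TPX2, an activator of AURKA, at 0.60, the microtubule bundler PRC1 at 0.62 and CKAP2 at 0.62. TACC3 was at -0.19. Among the cytokinesis genes, anillin (ANLN) had 0.73 and ECT2, the exchange factor that activates RhoA at the cleavage site, 0.44. On the chromosome side, MKI67, the Ki-67 protein of the chromosome surface, measured 11.09, 10.69 and 10.83 with aminaphtone, against 10.65, 8.93 and 9.65 in controls, a difference of 1.12 (SE 0.32, limma adjusted p = 0.139). TOP2A, topoisomerase II, measured 11.27, 10.92 and 10.90 with aminaphtone, against 10.85, 9.72 and 9.73 in controls, a difference of 0.93 (SE 0.27, limma adjusted p = 0.139). In both genes control replicate 1 lay just under the aminaphtone arrays and the other controls well below. The condensin subunits NCAPG (0.92), SMC4 (0.80) and NCAPH (0.45) were positive and survivin, BIRC5, was at -0.16. FOXM1, the transcription factor of this gene group, measured 10.60, 10.41 and 10.70 with aminaphtone, against 10.18, 11.29 and 10.72 in controls, a difference of -0.16 (SE 0.23, limma adjusted p = 0.573).

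The result at 1 h turned on single control arrays. Against control replicate 1 alone, the mean of the aminaphtone arrays had a median log2 difference of 0.234 and was higher in 45 of 47 members. Against replicate 2 it was 0.872 and higher in 37, and against replicate 3 it was 0.708 and higher in 38. Leaving control replicate 1 out of the fit, 33 members were higher, but 53.9% of all transcript clusters then passed. Without replicate 2 or without replicate 3, 0 members passed. Without replicate 2, 46 of 47 members had positive differences, and PLK1, CDC20 and FOXM1 turned to 0.06, 0.10 and 0.12 in that order. Leaving out both replicates 2 and 3, 0 members passed and the median difference was 0.23. With the replicate number as a block, 27 members were higher, against 15.6% of all clusters. In that fit NEK2 had a limma adjusted p of 0.0172, CDK1 0.0172, BUB1 0.0295, MKI67 0.0315 and CCNB1 0.0491. The labels do not say that equal numbers mark a shared culture or day, but arrays of equal number deviated together at 1 h. The first residual component separated the same numbers, with 12.6, -8.13 and -4.48 for the aminaphtone arrays against 46.6, -42.5 and -4.09 for the controls, and the pairing cannot be told apart from it. The role of the spread among the 1 h controls in these counts was not tested further.

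**Figure D3:**
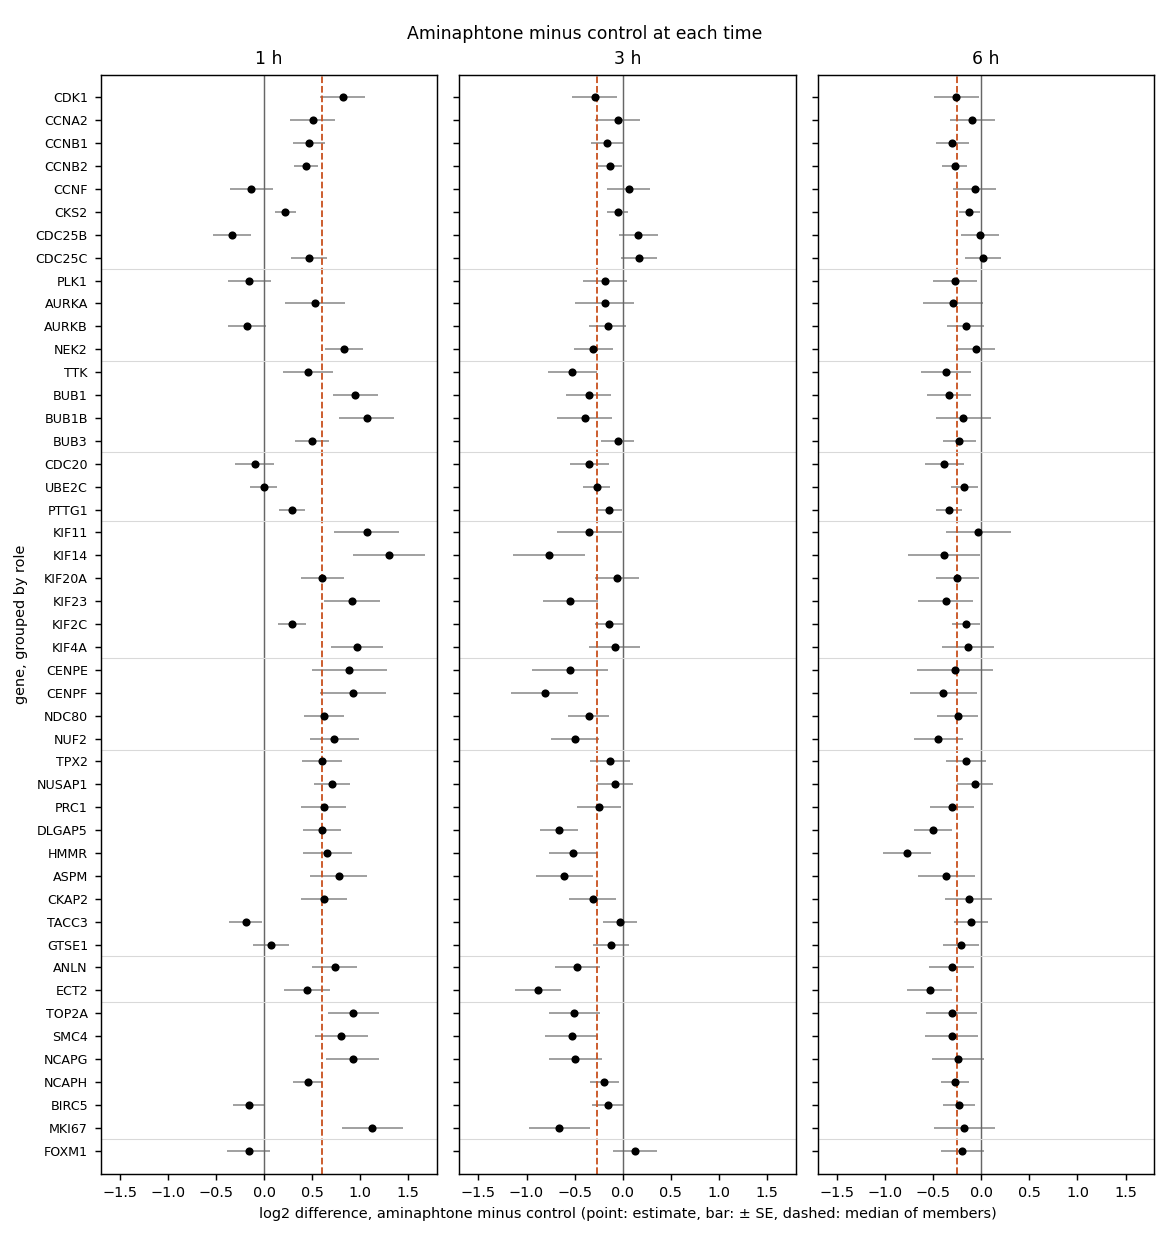
Log2 difference, aminaphtone minus control, at 1, 3 and 6 h for each of the 47 genes (points, with bars of ± SE from the limma fit), with the median of the members dashed at 0.60, -0.27 and -0.25. Points lie mostly right of 0 at 1 h and left of 0 at 3 and 6 h, and none passed the test.

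At 3 h the differences were on the other side of 0 and smaller. Of 47 members 43 were below control, with a median log2 difference of -0.27 against 0.00 over all clusters, and 0 passed in limma (3 at an unadjusted p under 0.05), while 0.038% of all clusters did. For this and the later counts at an unadjusted p, the share of all clusters is not given. Such counts are therefore not read as particular to the members. In 10 members every aminaphtone array lay below every control array, against 4.99% of all clusters. These were ANLN, BUB1, CDC20, DLGAP5, ECT2, HMMR, KIF14, NUF2, SMC4 and TTK. ECT2 had the smallest p. It measured 9.77, 9.99 and 10.29 with aminaphtone, against 11.07, 10.88 and 10.76 in controls, a difference of -0.88 (SE 0.24, limma adjusted p = 0.337), and the groups stood well apart. DLGAP5, which stabilises kinetochore microtubules, measured 8.91, 8.82 and 8.92 with aminaphtone, against 9.77, 9.55 and 9.32 in controls, a difference of -0.66 (SE 0.20, limma adjusted p = 0.43).

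The further genes at 3 h had larger p-values. HMMR, a spindle protein also known as a hyaluronan receptor, measured 7.27, 7.35 and 7.11 with aminaphtone, against 7.80, 8.09 and 7.38 in controls, a difference of -0.52 (SE 0.25, limma adjusted p = 0.776). CENPF measured 9.25, 8.85 and 9.52 with aminaphtone, against 10.29, 10.41 and 9.36 in controls (-0.81, SE 0.35, limma adjusted p = 0.689), with overlap through control replicate 3. MKI67 measured 9.85, 9.63 and 10.26 with aminaphtone, against 11.10, 10.21 and 10.40 in controls (-0.66, SE 0.32, limma adjusted p = 0.776), its control replicate 1 being the highest of all its arrays. BUB1 did not overlap, but its lowest control array lay next to its highest aminaphtone array (9.11, 9.27 and 9.39 with aminaphtone, against 9.93, 9.39 and 9.51 in controls, difference -0.35, SE 0.23, limma adjusted p = 0.865). AURKA measured 9.90, 9.06 and 9.47 with aminaphtone, against 10.22, 8.67 and 10.10 in controls, with a low replicate 2 in both groups and a difference of -0.19 (SE 0.31, limma adjusted p = 0.925). That sign turned when control replicate 1 (0.09) or 3 (0.03) or aminaphtone replicate 2 (0.02) was left out. The remaining genes had differences of -0.29 for CDK1 (SE 0.23), -0.16 for CCNB1 (SE 0.17), -0.19 for PLK1 (SE 0.23), -0.35 for CDC20 (SE 0.20), -0.50 for TOP2A (SE 0.27) and 0.13 for FOXM1 (SE 0.23). Their limma adjusted p-values were 0.87, 0.894, 0.901, 0.839, 0.822 and 0.928 in that order. CCNF, CDC25B, CDC25C and FOXM1 were the 4 members with a positive difference.

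At 6 h, 46 of 47 members were below control, by a median of -0.25 log2 units against -0.01 over all clusters. In limma 0 passed (5 at an unadjusted p under 0.05), while 0.108% of all clusters did. In 10 members the aminaphtone arrays all lay below the control arrays, against 7.25% of all clusters. These were AURKA, BUB3, CCNB1, CCNB2, DLGAP5, ECT2, HMMR, NCAPH, PRC1 and PTTG1, so DLGAP5, ECT2 and HMMR were separated at both 3 and 6 h. HMMR differed most. It measured 6.21, 7.19 and 6.97 with aminaphtone, against 7.37, 7.69 and 7.63 in controls, a difference of -0.77 (SE 0.25, limma adjusted p = 0.766), and aminaphtone replicate 1 was well below the other two. ECT2 measured 9.45, 10.05 and 10.10 with aminaphtone, against 10.31, 10.48 and 10.42 in controls (-0.54, SE 0.24), and replicate 1 was again the lowest.

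In the cyclins and securin the aminaphtone arrays at 6 h were close together. CCNB2 measured 9.54, 9.51 and 9.55 with aminaphtone, against 9.62, 9.93 and 9.89 in controls (-0.28, SE 0.13). CCNB1 measured 10.83, 10.90 and 10.82 with aminaphtone, against 10.9976, 11.43 and 11.03 in controls (-0.30, SE 0.17). Securin, PTTG1, measured 9.30, 9.33 and 9.38 with aminaphtone, against 9.46, 9.95 and 9.61 in controls (-0.34, SE 0.14). In these genes the aminaphtone arrays lay within a narrow band just under the lowest control. DLGAP5 measured 8.62, 9.12 and 9.14 with aminaphtone, against 9.25, 9.71 and 9.43 in controls (-0.50, SE 0.20). The differences were -0.26 for CDK1 (SE 0.23), -0.27 for PLK1 (SE 0.23), -0.29 for AURKA (SE 0.31), -0.34 for BUB1 (SE 0.23) and -0.38 for CDC20 (SE 0.20). They were -0.31 for TOP2A (SE 0.27), -0.18 for MKI67 (SE 0.32) and -0.20 for FOXM1 (SE 0.23). For all of these genes but HMMR the limma adjusted p was 1 to 2 decimals. CDC25C, at 0.02, was the single member above 0.

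Across the times, 37 members were above control at 1 h and below it at 3 and 6 h. AURKB, BIRC5, CDC20, PLK1, TACC3 and UBE2C were below at all 3 times, CCNF, CDC25B and FOXM1 were above at 3 h and below at 1 and 6 h, and CDC25C was above throughout. The signs at 1 h rest on all 3 control arrays. Leaving out control replicate 1, 2 or 3 there, 37, 46 and 39 of the 47 were above control in that order. Averaged over the times the members' median difference was 0.00, 0 passed in limma (2 at an unadjusted p under 0.05), and 0.829% of all clusters passed. ECT2 was at -0.33 (SE 0.14, limma adjusted p = 0.227) and CDC20 at -0.28 (SE 0.12, adjusted p = 0.231). CDC25C was at 0.22 (SE 0.11, adjusted p = 0.273), BIRC5 at -0.18 (SE 0.10, adjusted p = 0.294) and UBE2C at -0.15 (SE 0.08, adjusted p = 0.307). CCNB1 (0.00), CDK1 (0.09), AURKA (0.02), BUB1 (0.09), TOP2A (0.04), MKI67 (0.10) and FOXM1 (-0.08) lay nearer to 0, and PLK1 was at -0.20 (SE 0.13, adjusted p = 0.364). Whether the treatment difference varied with time was tested by the interaction of treatment and time, where 0 of 47 members passed and 32 had an unadjusted p under 0.05. In that test 0.038% of all clusters passed after adjustment, and their share at the unadjusted threshold is not given here. DLGAP5 had the smallest limma adjusted p (0.357), followed by BUB1 (0.471), HMMR (0.521), NEK2 (0.521) and CCNB2 (0.521). With the replicate number as a block DLGAP5 alone passed (0.0481), against 0.0696% of all clusters. Without control replicate 1 at 1 h 27 members passed, against 19% of all clusters. Without replicate 2 or without replicate 3 at 1 h 0 passed, against 0.0317% and 0.019% in that order.

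**Figure D4:**
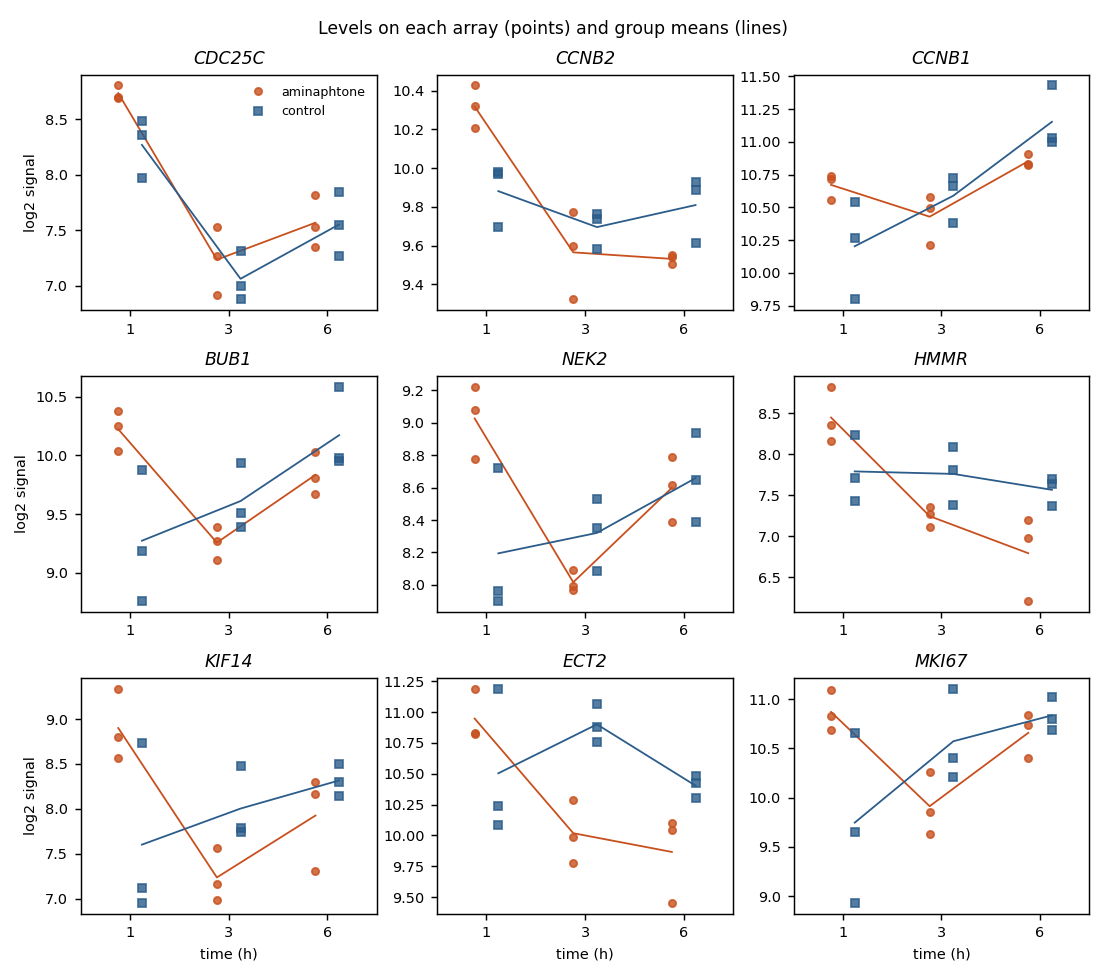
Log2 signal of 9 genes on each array (points) and group means (lines) against time (the 3 times are drawn evenly spaced), for aminaphtone (circles) and control (squares). With aminaphtone the means of all 9 genes are lower at 3 h than at 1 h, while in controls CDC25C is the one whose 3 h arrays all lie below its 1 h arrays.

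The clearest change of the mitosis genes was within the aminaphtone arm between 1 and 3 h, a comparison that does not use the scattered 1 h controls for its difference. There 23 of 47 members fell and 0 rose in limma, against 10.5% of all clusters, of which 804 rose and 861 fell. The median log2 difference of the members was -0.75, against 0.02 over all clusters. In 40 of 47 members every 3 h array lay below every 1 h array, against 16.2% of all clusters. By role, 4 of 8 cyclin and CDK1 genes fell, 1 of 4 kinases, 3 of 4 checkpoint genes, 0 of 3 anaphase genes, 3 of 6 kinesins, 3 of 4 kinetochore genes, 6 of 9 spindle-associated genes, both cytokinesis genes and 1 of 6 chromosome genes. The spread of each gene in this test is shared by all 18 arrays. Fitted on the 2 groups alone, 34 members fell and 1 rose, against 16.9% of all clusters.

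CDC25C, the phosphatase, fell with the smallest p. It measured 7.27, 7.53 and 6.91 at 3 h, against 8.81, 8.70 and 8.70 at 1 h, 2.83-fold lower (log2 difference -1.50, SE 0.19, limma adjusted p = 5.72e-05). NDC80, the kinetochore's microtubule coupler, measured 8.21, 7.99 and 8.54 at 3 h, against 9.87, 9.42 and 9.36 at 1 h, 2.47-fold lower (-1.30, SE 0.21, adjusted p = 0.000641). CCNB2 measured 9.60, 9.77 and 9.32 at 3 h, against 10.43, 10.21 and 10.32 at 1 h, 1.69-fold lower (-0.75, SE 0.13, adjusted p = 0.000967). In each the 3 h arrays were well clear of the 1 h arrays. NEK2 measured 7.97, 7.99 and 8.09 at 3 h, against 9.22, 9.08 and 8.78 at 1 h, 2.02-fold lower (adjusted p = 0.00335 in limma), and its 3 h arrays lay close together. KIF14 had the largest drop, with 6.99, 7.16 and 7.56 at 3 h, against 9.34, 8.56 and 8.80 at 1 h, 3.16-fold lower (-1.66, SE 0.38, limma adjusted p = 0.00848). BUB1 measured 9.11, 9.27 and 9.39 at 3 h, against 10.38, 10.25 and 10.04 at 1 h, 1.95-fold lower (-0.96, SE 0.23, limma adjusted p = 0.0127).

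The condensin subunit NCAPH fell by 0.81 on the log2 scale (SE 0.15, limma adjusted p = 0.00207) and DLGAP5 by 1.03 (SE 0.20, adjusted p = 0.00281). The checkpoint kinase TTK fell by 1.24 (SE 0.26, adjusted p = 0.00495 in limma), HMMR by 1.20 (SE 0.25, adjusted p = 0.00495), BUB1B by 1.29 (SE 0.29, adjusted p = 0.00746) and NUF2 by 1.10 (SE 0.25, adjusted p = 0.00983). The other genes that fell were CKAP2, CENPF, ASPM, KIF11, CKS2, ECT2, CDC25B, ANLN, NUSAP1, TPX2 and KIF20A, by 0.43 (CKS2) to 1.42 (CENPF) on the log2 scale. Of the 24 that did not pass, MKI67 (-0.96), KIF23 (-0.91), CENPE (-0.84), TOP2A (-0.83) and NCAPG (-0.81) had the lowest log2 differences. CCNB1 (-0.24), CDK1 (-0.60), PLK1 (-0.52), AURKA (-0.64), CDC20 (-0.59) and FOXM1 (-0.48) did not pass either, and CCNF (0.52) was the one member whose 3 h arrays all lay above its 1 h arrays. Without aminaphtone replicate 1 at 1 h, the highest of all 18 arrays for 20 members, 10 members fell, against 5% of all clusters. Without aminaphtone replicate 1 at 3 h 13 fell, against 5.25%.

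**Figure D5:**
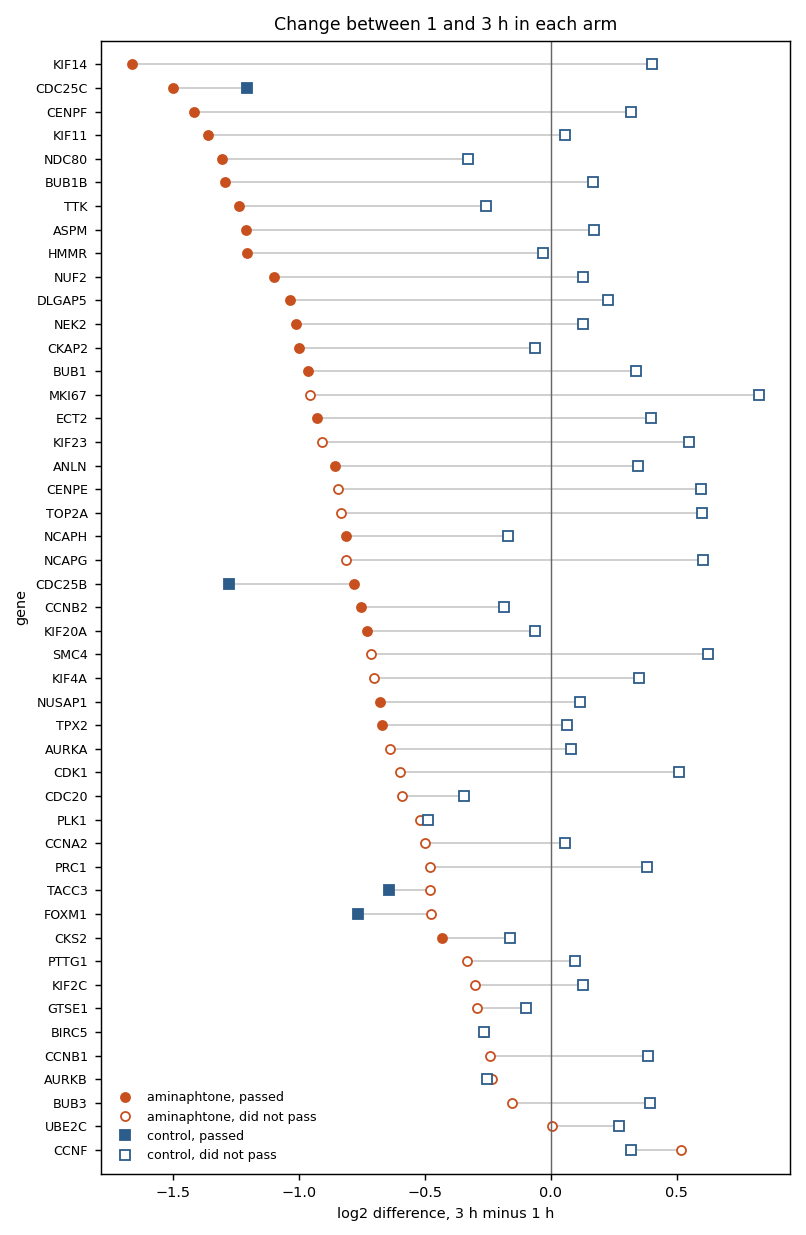
Log2 difference, 3 h minus 1 h, of each gene in the aminaphtone arm (circles) and the control arm (squares), ordered by the aminaphtone value, with filled symbols for genes that passed in limma (adjusted p under 0.05). In the aminaphtone arm 23 genes passed, all below 0, and in the control arm 4 passed, all below 0.

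In the control arm over the same interval 4 of 47 members fell and 0 rose, against 12.8% of all clusters, with a median log2 difference of 0.13 (-0.02 over all clusters). The side of 0 of that median was not stable. Without control replicate 1, 2 or 3 at 1 h it was 0.21, -0.01 and 0.07 in that order, without replicate 1 at 3 h -0.02, and without both replicates 2 and 3 at 1 h -0.22. CDC25C measured 6.9995, 7.31 and 6.88 at 3 h, against 8.35, 7.97 and 8.48 at 1 h, 2.31-fold lower (-1.21, SE 0.19, limma adjusted p = 0.000436). CDC25B measured 9.26, 9.78 and 9.34 at 3 h, against 10.45, 10.9978 and 10.76 at 1 h, 2.42-fold lower (-1.28, SE 0.20, limma adjusted p = 0.000532). The groups stood far apart for both phosphatases. FOXM1 measured 10.00, 9.98 and 9.92 at 3 h, against 10.18, 11.29 and 10.72 at 1 h, a log2 difference of -0.76 (SE 0.23, limma adjusted p = 0.035), with replicate 2 the highest at 1 h. Without that array the FOXM1 difference was -0.48 (limma adjusted p = 0.1585). TACC3, a spindle protein, measured 8.19, 8.37 and 8.24 at 3 h, against 8.54, 9.33 and 8.86 at 1 h (-0.64, SE 0.17, limma adjusted p = 0.023). CDC25B and CDC25C thus fell in both arms, which is 2 of the 23 genes that fell with aminaphtone (8.7%) and 2 of the 4 in controls (50%). Besides the interaction above, the arms were tested gene by gene by the change of the treatment difference from 1 to 3 h. Without the replicate block, 0 of 47 members passed that test (lowest limma adjusted p = 0.3285). The share of all clusters that passed it is not given here. Leaving out control replicate 1 at 1 h turned the control result to 12 rises and 7 falls, which is 40.4% of the members against 36.2% of all clusters. Without control replicate 3 at 1 h, or replicate 1 or 3 at 3 h, 2 fell, against 8.16%, 6.25% and 7.7% of all clusters in that order. Without control replicate 2 at 1 h 1 rose and 2 fell, against 10.6%.

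From 3 to 6 h no member passed in either arm, although 38 of 47 were higher at 6 h in each. In the aminaphtone arm the median log2 difference was 0.32, with 0 called (17 at an unadjusted p under 0.05), against 0.266% of all clusters. The smallest p-values belonged to PLK1, with 11.48, 11.39 and 11.13 at 6 h, against 10.94, 10.5020 and 10.18 at 3 h (log2 difference 0.79, SE 0.23, limma adjusted p = 0.178), NEK2 (0.58), AURKA (0.88), KIF2C (0.39) and BUB1B (0.77). In the control arm the median was 0.31, with 0 called (12 at an unadjusted p under 0.05), against 0.513% of all clusters. PLK1 again came first, with 11.52, 12.0004 and 11.29 at 6 h, against 10.90, 10.39 and 10.89 at 3 h (0.88, SE 0.23, limma adjusted p = 0.107), then CCNB1 (0.56), NCAPH (0.48), AURKA (0.99) and KIF2C (0.40). In PLK1 all 6 h arrays lay above all 3 h arrays in both arms.

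Over the whole span the genes past the threshold differed between the arms, apart from CDC25B, CDC25C and CCNF. The arms were compared directly by the change of the treatment difference from 1 to 6 h. Without the replicate block, 0 of 47 members passed that test (lowest limma adjusted p = 0.3578). The share of all clusters that passed it is not given here. With aminaphtone, 12 members fell and 1 rose between 1 and 6 h, against 16.7% of all clusters, with a median log2 difference of -0.47 (0.02 over all clusters). HMMR, the largest drop, measured 6.21, 7.19 and 6.97 at 6 h, against 8.82, 8.16 and 8.36 at 1 h, 3.15-fold lower (-1.66, SE 0.25, limma adjusted p = 0.000273). CCNB2 measured 9.54, 9.51 and 9.55 at 6 h, against 10.43, 10.21 and 10.32 at 1 h, 1.73-fold lower (-0.79, SE 0.13, limma adjusted p = 0.000435). CKS2 measured 11.95, 11.94 and 11.90 at 6 h, against 12.61, 12.47 and 12.61 at 1 h, 1.55-fold lower (-0.64, SE 0.11, limma adjusted p = 0.000733), with little spread in either group. The others that fell were CDC25C (-1.17), ECT2 (-1.08), NUF2 (-1.02), DLGAP5 (-0.96), CDC25B (-0.83), NDC80 (-0.78), ANLN (-0.78), NUSAP1 (-0.70) and PTTG1 (-0.49). CCNF was the gene that rose (0.74, SE 0.22, limma adjusted p = 0.0303) and is named after its value was seen. Of these 12 falls, 11 (91.7%) were among the 23 that fell by 3 h (47.8% of those), a pair of comparisons that share the 1 h arrays. Without aminaphtone replicate 1 at 1 h or replicate 1 at 6 h, 7 members passed, against 10.4% and 12% of all clusters in that order. When these 2 groups were fitted alone 28 passed, against 32.9%.

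In the control arm between 1 and 6 h, 12 members rose and 2 fell, against 26.5% of all clusters, with a median log2 difference of 0.39 (-0.01 over all clusters). These 14 are 29.8% of the members, close to the share of all clusters. CCNB1 measured 10.9976, 11.43 and 11.03 at 6 h, against 10.27, 9.80 and 10.54 at 1 h, 1.93-fold higher (0.95, SE 0.17, limma adjusted p = 0.000776). BUB3, a checkpoint protein, measured 10.58, 10.71 and 10.86 at 6 h, against 10.35, 9.40 and 9.88 at 1 h (0.84, SE 0.17, limma adjusted p = 0.00231). BUB1 measured 9.95, 10.58 and 9.98 at 6 h, against 9.87, 8.76 and 9.19 at 1 h (0.90, SE 0.23, limma adjusted p = 0.00929). In these genes all 6 h arrays lay above all 1 h arrays, and the 1 h arrays were the more widely spread. AURKA (1.07), MKI67 (1.09), KIF23 (0.97), PRC1 (0.70), CCNF (0.67), KIF2C (0.53) and UBE2C (0.50) also rose, as did TPX2 and CCNA2. CDC25B (-1.15) and CDC25C (-0.72) fell. No gene that fell with aminaphtone between 1 and 6 h rose in controls, CCNF rose in both arms, and CDC25B and CDC25C fell in both. The control count was 27 without control replicate 1 at 1 h (23 rises and 4 falls), against 44.8% of all clusters. It was 9 without replicate 2 at 1 h, with 6 rises and 3 falls (20.7% of all clusters). It was 10 without replicate 3 at 1 h, with 8 rises and 2 falls (20.3%). Leaving out control replicate 2 at 6 h gave 5 (21.1%), and falls then outnumbered rises. Leaving out control replicate 3 at 6 h gave 7 (16.4%), and rises still outnumbered falls. The count was 3 when these 2 groups were fitted alone, against 6.89%.

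Genes near the members in function were read in the same fits. Of 50 other mitosis genes, 20 fell and 0 rose with aminaphtone between 1 and 3 h (median log2 difference -0.65), where 10.5% of all clusters passed. They were led by LMNB1, lamin B1 of the nuclear envelope (-1.18, SE 0.14, limma adjusted p = 4.74e-05), OIP5, a centromere protein (-1.32), and the kinesin KIF15 (-1.30). In controls between 1 and 6 h 6 of the 50 rose and 5 fell, a share under the 26.5% of all clusters. At 1 h 0 of the 50 passed between aminaphtone and control (median 0.61). With the replicate block 27 were higher, against 15.6% of all clusters. Without control replicate 1 it was 31, against 53.9% of all clusters, and without replicate 2 or without replicate 3 it was 0. Of 14 core subunits of the anaphase-promoting complex, 2 fell with aminaphtone between 1 and 3 h, ANAPC13 (-0.89) and ANAPC7 (-0.63), and 0 rose. That count is to be set beside the same 10.5% of all clusters, as is the next. Of 20 regulators of G2/M transcription and entry, 5 fell, with E2F5 (-0.75) and E2F8 (-0.86), and 2 rose, with the MuvB subunit LIN37 at 0.65. In controls over that interval 5 of the 50, 1 of the 14 and 2 of the 20 fell. In these lists 0 rose in controls, where 12.8% of all clusters passed. OIP5 (-0.81), ANAPC13 (-0.60) and E2F5 (-0.69) were among those control falls, so they fell in both arms.

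Genes of S phase, the stage before G2, were read in the same way. With aminaphtone 14 of 33 fell and 1 rose between 1 and 3 h (median log2 difference -0.42), against 10.5% of all clusters. Between 1 and 6 h 30 fell and 0 rose (median -0.85), against 16.7% of all clusters. The falls to 6 h were led by the primase subunit PRIM1 (-2.01) and the clamp loader subunit RFC4 (-1.26). In controls 3 of 33 fell and 1 rose between 1 and 3 h (median -0.14), against 12.8% of all clusters. PRIM1 (-0.87) and RFC4 (-0.58) were among these control falls. Between 1 and 6 h 15 of 33 fell and 0 rose in controls (median -0.38), against 26.5% of all clusters. Among them were PRIM1 (-1.14), RFC4 (-0.95) and the helicase subunit MCM5 (-1.17). In the same comparison 12 G2/M and mitosis genes rose. Without control replicate 1, 2 or 3 at 1 h the falls in controls were 17, 17 and 15 in that order, with 1, 1 and 0 rises. Of all clusters 44.8%, 20.7% and 20.3% then passed. At 1 h 0 of 33 passed between aminaphtone and control (median 0.24), while 12 were higher with the replicate block, against 15.6% of all clusters. Without control replicate 1 at 1 h 13 were higher and 3 lower, against 53.9% of all clusters. Without replicate 2 or without replicate 3 it was 0.

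Returning to the promoters, 27 measured genes have a CHR of either spelling in their window and 13 have none. With aminaphtone between 1 and 3 h, 15 of the 27 fell (median log2 difference -0.86, from -1.66 to 0.52), as did 6 of the 13 without (median -0.73, from -1.50 to -0.23). At 1 h the median difference, aminaphtone minus control, was 0.73 for genes with a CHR and 0.47 for those without. In controls between 1 and 3 h the medians were 0.32 with a CHR, where 0 passed, and -0.06 without, where 3 did. Leaving out 1 control array at 1 h, the treatment medians at 1 h ran from 0.60 to 1.04 with a CHR and from 0.27 to 0.50 without. The control medians between 1 and 3 h then ran from 0.08 to 0.57 with a CHR and from -0.06 to 0.06 without. CDC25B and CDC25C, which fell in both arms, and TACC3, which fell in controls, are among the genes with no CHR or NF-Y letters in the window. With 1 window searched per gene, this does not show that these genes lack a CHR or an NF-Y box. The ranges of the groups with and without a CHR overlapped in each of these comparisons.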

How the data were processed

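RNA of 18 samples, 3 for each of 6 groups of treatment and time, was hybridised to Affymetrix Human Gene 1.0 ST arrays. Each transcript cluster has a deposited log2 value, made by the authors with RMA in Affymetrix Expression Console, per the submitters' processing notes. RMA corrects background, makes the distribution of signals alike on all arrays and summarises the probes of a cluster, so a shift shared by all genes of an array cannot be seen. The tool's version, the arrays normalized together and the genome build of the annotation are not given in the sources used here. Arrays have no read depth, and precision depends on their number.

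Of 28869 transcript clusters 19310 have a single gene symbol, 1752 several and 7807 none, and 19279 of the single symbols matched a RefSeq gene by gene ID. The 15796 annotated clusters whose mean exceeded the 25th percentile of such means (6.193) were fitted in limma 3.58.1 (R 4.3.3) with 1 mean per group over all 18 arrays, 12 residual and 4.814 prior degrees of freedom, two-sided, adjusted by Benjamini and Hochberg over all of them, with a threshold of 0.05. All 47 measured members passed the filter. The fit was tested on simulated data.

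The comparisons were aminaphtone minus control at each time and averaged, their interaction with time, and the differences between times in each arm. Treatment differences and differences between times share arrays. Full statistics were given to members past the threshold (at most 12 by p), or to the 5 smallest p-values, and to 9 further genes in each treatment comparison, and to at most 3 genes of each companion list. The members and lists were chosen with earlier results of these data known. Pairing by replicate number was checked from the correlation of deviations from group means. For equal numbers the correlation was 0.746, 0.411 and 0.322 between aminaphtone and control at 1 h, and 0.313, 0.359 and 0.258 between control at 3 h and at 1 h. In every other pair of groups at least 1 correlation was negative. It was 0.456, -0.086 and 0.711 between aminaphtone and control at 6 h, and 0.662, -0.27 and 0.691 between aminaphtone at 6 h and at 3 h. All comparisons were also fitted with the number as a block, within each time for the treatment differences and over all arrays for differences between times. Promoter letters were searched in the first RefSeq window listed for each gene. The alternatives tried were the filter, centring of arrays, trended and robust variance, array weights, only the arrays compared, the block, the mean of a gene's clusters, the first residual component as a covariate, leaving out each array and, chosen after seeing the data, leaving out both control replicates 2 and 3 at 1 h.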

Additional observations from a re-analysis of the deposited data

Results flagged for a closer look

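For 7 members every aminaphtone array lay above every control array at 1 h and below every control array at a later time. How often this pattern occurs over all clusters was not computed. The 7 were picked by the same values that enter the test. The reversal was tested as the change of the treatment difference between the times in limma, and none of the 7 passed. With the replicate number as a block none of the 7 passed either (BUB1 0.0713, the others from 0.105 to 0.168), while DLGAP5 passed at 3 h (adjusted p = 0.0497) and CDK1, DLGAP5 and HMMR at 6 h (0.0495, 0.0423 and 0.0318). The share of all clusters that passed in these block tests is not given here. That block was also set at 3 and 6 h, where arrays of equal number did not all deviate together. BUB1 was above at 1 h and below at 3 h, and its treatment difference changed by -1.30 log2 units (SE 0.33, adjusted p = 0.329). The other 6 were above at 1 h and below at 6 h. The change was -0.82 for AURKA (SE 0.44, adjusted p = 0.433), -0.77 for CCNB1 (SE 0.24, adjusted p = 0.398) and -0.71 for CCNB2 (SE 0.18, adjusted p = 0.358). It was -0.72 for NCAPH (SE 0.21, adjusted p = 0.398), -0.92 for PRC1 (SE 0.33, adjusted p = 0.406) and -0.63 for PTTG1 (SE 0.20, adjusted p = 0.398). All 7 use the 1 h control arrays, which differ among themselves.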

How the results depend on the processing

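Counts and medians of the members stayed within 1.5 times, on their side of 0, with no filter, a stricter filter, arrays centred on their medians, trended and robust variance, or the mean of a gene's transcript clusters, except that centring moved the median for the mean of times, 0.0027, to 0.032. The replicate block gave 27 members past the threshold at 1 h, 1 in the interaction, and 1 and 3 in the change of the treatment difference from 1 h to 3 h and to 6 h, each 0 without it. It moved no other adjusted count of members by over 1.5 times, while the counts at an unadjusted p under 0.05 became 18 at 3 h, 8 at 6 h and 7 for the mean. The share of all clusters at that unadjusted threshold is not given for these fits. With array weights, which gave control replicate 3 at 1 h a weight of 7.84 and replicates 1 and 2 0.158 and 0.13, the counts were 31, 1 and 3 at 1, 3 and 6 h, 15 for the mean of times and 32 for the interaction, where 62.7%, 1.82%, 17.7%, 42.9% and 40.4% of all clusters passed. They were 27 (16 rises and 11 falls), 14 and 38 in controls for 3 minus 1, 6 minus 3 and 6 minus 1 h (49.9%, 13.1% and 59.6% of all clusters), and 37, 23 and 27 with aminaphtone in that order (30.4%, 32% and 48.7%). With the first residual component as a covariate, a measure taken from the same arrays, the counts were 33, 3 and 1 at 1, 3 and 6 h, 3 for the mean and 28 for the interaction (48%, 2.27%, 1.07%, 28.9% and 24.1%). They were then 15 (8 rises and 7 falls), 9 and 26 in controls (37.7%, 9.9% and 47.5%), and 36, 11 and 29 with aminaphtone (28.8%, 11.1% and 38.2%). Fitting only the 2 groups compared gave 2 in controls for 3 minus 1 h and 3 for 6 minus 1 h (1.44% and 6.89% of all clusters). With aminaphtone it gave 35, 1 and 28 (16.9%, 1.04% and 32.9%). Without both control replicates 2 and 3 at 1 h the lone control there is assumed to vary like the other arrays. The medians of that fit were 0.23 at 1 h, and -0.22 and 0.079 in controls for 3 minus 1 and 6 minus 1 h.

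Leaving out 1 array at a time, the counts ran from 0 to 33 at 1 h, 0 to 1 at 3 h, 0 to 0 at 6 h, 0 to 4 for the mean and 0 to 27 for the interaction. In controls they ran from 2 to 19 for 3 minus 1 h, 0 to 2 for 6 minus 3 h and 5 to 27 for 6 minus 1 h, and with aminaphtone from 10 to 32, 0 to 0 and 7 to 19. Without control replicate 1 at 1 h the counts reached 33 at 1 h and 27 for the interaction, against 53.9% and 19% of all clusters. In that fit controls reached 19 for 3 minus 1 h and 27 for 6 minus 1 h (36.2% and 44.8%), and aminaphtone 32 and 19 (16.7% and 23.7%). The medians ran from 0.44 to 0.79 at 1 h, -0.39 to -0.15 at 3 h, -0.33 to -0.13 at 6 h and -0.04 to 0.04 for the mean. In controls they ran from -0.02 to 0.21, 0.17 to 0.43 and 0.26 to 0.53, and with aminaphtone from -0.81 to -0.66, 0.28 to 0.40 and -0.52 to -0.36.

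Some differences near 0 turned sign. Leaving out 1 array at a time, PLK1 ran from -0.36 to 0.06 at 1 h, CDC20 from -0.30 to 0.10 and FOXM1 from -0.43 to 0.12, each positive without control replicate 2, and without both replicates 2 and 3 they were 0.27, 0.30 and 0.39. AURKA ran from -0.69 to 0.090 at 3 h. With array weights CDK1 was 0.018 and MKI67 0.018 at 6 h. For the mean of times, leaving out 1 array, CCNB1 ran from -0.065 to 0.059, AURKA from -0.15 to 0.11, TOP2A from -0.025 to 0.16, MKI67 from -0.04 to 0.25 and FOXM1 from -0.17 to 0.017. With array weights CCNB1 was -0.066 and AURKA -0.11. Without both control replicates, CCNB1 was -0.019, CDK1 -0.087, AURKA -0.02, BUB1 -0.11, TOP2A -0.21, MKI67 -0.21 and FOXM1 0.11. The cause of these turns was not tested.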
